A study of Mus musculus with 9 samples.

Results

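Testis RNA of 3 Prm1-/- males was compared with that of 3 Prm1+/- males, so that the comparison asked what changes when the second copy of the protamine 1 gene is also lost. Loci were kept where at least 3 of these 6 males had 10 or more counts. This left 17358 of the 50433 loci in the deposited table, of which 1056 carried an Ensembl gene identifier and 16302 were MSTRG loci. MSTRG numbers are given by the assembler StringTie to loci it builds from the reads, and the files do not pair them with gene names or positions. In Prm1-/- testis 36 loci rose and 2 fell, together 0.219% of the loci tested, and all 38 were MSTRG loci (0.233% of those).

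Protamines are small, arginine-rich proteins that replace histones in elongating spermatids and pack the DNA of the sperm head. Protamine genes are transcribed in round spermatids, and their mRNA is stored until translation begins in elongating spermatids. Whole testis also holds spermatogonia, spermatocytes, Sertoli cells, Leydig cells, peritubular myoid cells, vessels and macrophages, and each of them adds its RNA to the libraries.

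The males were adult mice labelled with a C57BL/6 background. The edited allele was made with Cas9 and 2 guide RNAs in zygotes of a C57BL/6 by DBA cross, was taken from 1 founder and was backcrossed to C57BL/6J. Prm1+/- males carried it on 1 chromosome and Prm1-/- males on both, and 3 WT males of the same series carried none. Each library came from whole testis of 1 male after removal of the tunica albuginea, and 3′-mRNA-sequencing (QuantSeq) was used, in which reads gather near the polyadenylated end. The edited allele is given here because its copy number is the variable of the comparison. The coding sequence of Prm1 (GENCODE vM21, transcript ENSMUST00000023144, 156 bases, 5′ to 3′) is printed with the coding bases removed by the edit in capitals. With the A of ATG as base 1 they are bases 51 to 125, and the intron that lies between them is also removed but is not shown.
Prm1 coding sequence: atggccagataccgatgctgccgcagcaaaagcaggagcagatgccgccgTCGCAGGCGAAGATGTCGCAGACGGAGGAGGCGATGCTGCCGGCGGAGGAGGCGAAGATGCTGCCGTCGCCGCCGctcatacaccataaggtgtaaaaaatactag
The capitals cover 75 of the 156 bases, or 25 codons, and the other 81 bases remain in frame. Prm1 lies on the minus strand of chromosome 16 from 10796326 to 10805839 (GRCm38), and no row of the table carries its Ensembl identifier, so the genotype labels could not be checked against its expression.

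Prm1+/- replicates 1 to 3 held 7363856, 8347849 and 7282763 estimated counts. In Prm1-/- replicates 1 to 3 the totals were 11036146, 4752618 and 3792167, so that Prm1-/- replicate 1 was the largest library and the others were smaller than every Prm1+/- library. Levels are given as counts per 1000000 counts (CPM) after TMM scaling. A floor of 3 counts, below which a level was not told from 0, corresponded to 0.275 to 0.758 CPM in these 6 libraries, with counting error only. Prm1+/- replicate 2 was more like the Prm1-/- males, and also more like the WT males, than the other Prm1+/- males were. Across the 17358 loci its log2(CPM + 1) values had a Pearson's r of 0.915 to 0.945 with the 3 Prm1-/- males. The r was 0.855 to 0.88 for Prm1+/- replicate 1 and 0.874 to 0.898 for replicate 3. With the WT males it was 0.897 to 0.932 for replicate 2, 0.854 to 0.885 for replicate 1 and 0.868 to 0.904 for replicate 3. The same loci enter each of these values, and depth differs between the libraries.

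The change was one-sided among the loci that passed. A locus had to have an adjusted p (Benjamini-Hochberg) under 0.05 and a log2 fold change beyond 1 in either direction in the quasi-likelihood test of edgeR, fitted to all 9 libraries. Higher loci were 0.207% of those tested (0.221% of MSTRG loci) and lower loci 0.0115% (0.0123% of MSTRG loci). An unadjusted p under 0.05 was found for 2022 loci (11.6%), with 1278 higher (7.36%) and 744 lower (4.29%) in Prm1-/- testis. Among MSTRG loci alone these shares were 12.1%, 7.64% and 4.49%. Over all loci tested the median log2 fold change was 0.016, and 51.3% of the loci had a value above 0, with 51.4% among MSTRG loci. Every Prm1-/- male lay above every Prm1+/- male at 2429 loci (14.0%) and below at 2247 loci (12.9%). These shares were 14.3% and 13.3% for MSTRG loci. The excess of higher loci was thus large past the thresholds, smaller at an unadjusted p under 0.05 and slight in these ranks.

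**Figure D1:**
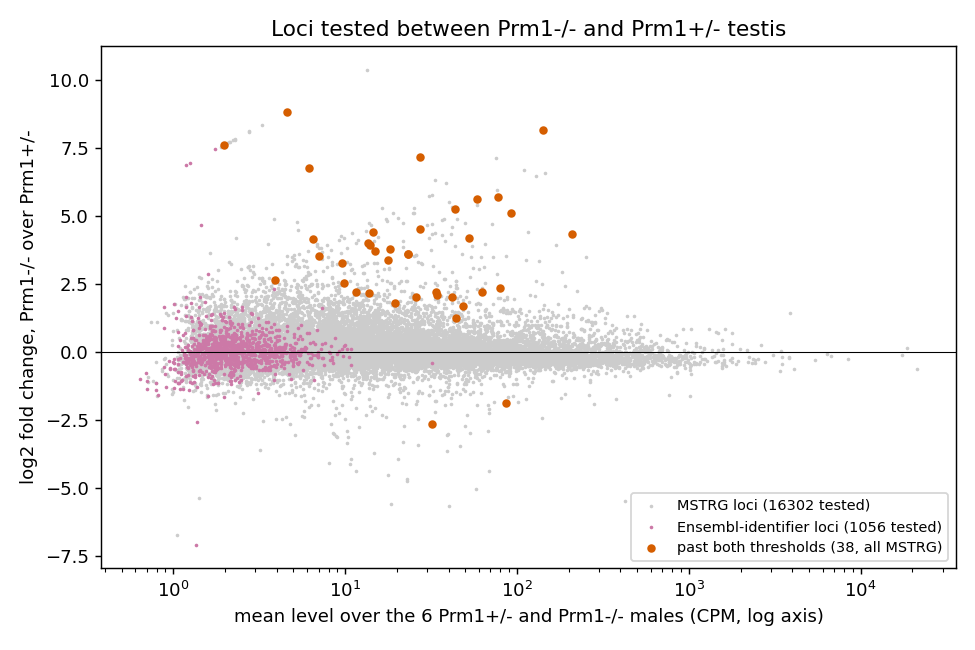
Mean level over the 6 Prm1+/- and Prm1-/- males (CPM, log axis) against the log2 fold change of Prm1-/- over Prm1+/- testis for the 17358 loci tested, with MSTRG loci in grey, Ensembl-identifier loci in pink and the 38 loci past both thresholds in orange. Of the orange points 36 lie above 0 and 2 below, and nearly all pink points lie at the low end of the level axis.

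By the level in the WT males, the 36 higher loci fell into 2 classes. At 22 loci the WT mean was nearer the Prm1+/- mean, on the log2(CPM + 1) scale, and at 14 loci it was nearer the Prm1-/- mean. The 38 loci were chosen on the difference between Prm1-/- and Prm1+/- males, in a fit whose spread and scaling the WT males shared. The classes were split on the WT mean itself, so that the WT ranges and sums within a class follow largely from the split. The position of WT is therefore given as a description.

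At the 22 loci with WT near Prm1+/-, the RNA was high in Prm1-/- testis and low in both other genotypes. Every WT male lay below every Prm1-/- male at 22 of 22 loci, and the WT and Prm1+/- ranges overlapped at 19. The Prm1-/- means lay between 19.0 and 398.7 CPM with a median of 55.3, and the Prm1+/- means lay between 0.353 and 25.8 CPM with a median of 3.50. The log2 fold changes ran from 1.69 to 8.17 with a median of 3.91. Summed over the 22 loci, the Prm1-/- males had 2138, 1900 and 2176 CPM, the Prm1+/- males 146.4, 179.4 and 156.9 CPM, and the WT males 156.1, 229.2 and 189.4 CPM. The sums of the Prm1+/- and WT males overlapped, and those of the Prm1-/- males lay far above both.

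MSTRG.17548 had the smallest adjusted p of all loci. Its level was 172.9, 182.8 and 180.7 CPM in the Prm1-/- males and 3.40, 6.62 and 5.28 CPM in the Prm1+/- males, from 1888, 847 and 715 counts against 24, 54 and 37. All 3 Prm1-/- males stood close together and the lowest was 26.1 times the highest Prm1+/- male. The log2 fold change was 5.12 (standard error 0.26, edgeR adjusted p = 0.000734), and the WT males had 5.58, 4.36 and 5.18 CPM, within the range of the Prm1+/- males.

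MSTRG.15718 was next. It had 130.1, 110.7 and 105.4 CPM in the Prm1-/- males and 3.26, 1.59 and 2.14 CPM in the Prm1+/- males, with no overlap. Its log2 fold change was 5.62 (standard error 0.38, edgeR adjusted p = 0.00262). The WT males had 2.07, 2.82 and 1.11 CPM, again low. The locus that followed, with the same adjusted p, had 150.1, 153.9 and 153.4 CPM in the Prm1-/- males and 2.55, 4.53 and 1.57 CPM in the Prm1+/- males.

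The highest levels in the class belonged to a locus with 399.6, 402.5 and 394.0 CPM in the Prm1-/- males and 15.3, 28.8 and 14.9 CPM in the Prm1+/- males. The largest fitted change was that of a locus with 387.3, 103.2 and 359.6 CPM in the Prm1-/- males and 0.992, 0.245 and 1.71 CPM in the Prm1+/- males. Here the Prm1-/- males differed from each other more than at the other loci named, and the adjusted p was 0.0458, the largest of the 38. Both loci kept every Prm1-/- male above every Prm1+/- male.

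At the 14 loci with WT near Prm1-/-, the RNA was low in the Prm1+/- males and the other genotypes had similar levels. The WT and Prm1-/- ranges overlapped at 14 of 14 loci, and every WT male lay above every Prm1+/- male at 14 of 14. The Prm1-/- means lay between 3.93 and 103.0 CPM (median 17.1) and the Prm1+/- means between 0 and 26.1 CPM (median 1.74), while the WT median was 15.3 CPM against 4.21 CPM in the first class. Summed over the 14 loci, the Prm1-/- males had 351.0, 372.5 and 367.0 CPM, the WT males 306.9, 363.4 and 303.4 CPM, and the Prm1+/- males 64.2, 86.3 and 69.4 CPM. In each sum the Prm1+/- males stood alone, and the highest of the 3 was replicate 2.

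At 3 of these 14 loci each Prm1+/- male was at or under the floor of 3 counts, and no fitted size is given for them. These 3 met the count filter only through the Prm1-/- males, so that a difference from Prm1+/- was built into their selection. Log2 fold changes at the remaining 11 lay between 1.25 and 4.17 (median 2.66). The locus at 4.17 had 2, 8 and 5 counts in the Prm1+/- males, so it too met the filter only through the Prm1-/- males. The same was true of a locus of the first class with 2, 4 and 2 counts in the Prm1+/- males. For these loci as well a difference was built into the selection. One of the 3 loci at or under the floor had 41, 15 and 19 counts in the Prm1-/- males. It had 15, 18 and 19 counts in the WT males and 0 counts in every Prm1+/- male. Another had 79, 51 and 36 counts in the Prm1-/- males, 16, 26 and 41 in the WT males and again 0 in every Prm1+/- male. Both were therefore counted in each of 6 males and in none of the Prm1+/- males, although these had 3 of the 4 largest libraries of the series.

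Both lower loci were abundant in Prm1+/- testis and fell in Prm1-/- testis without reaching 0. MSTRG.9014 had 9.62, 8.85 and 7.58 CPM in the Prm1-/- males and 55.7, 51.5 and 58.0 CPM in the Prm1+/- males, with no overlap. It fell by 2.66 on the log2 scale (standard error 0.35, edgeR adjusted p = 0.0295). The WT males had 37.6, 20.5 and 57.6 CPM, all above the Prm1-/- males and spread more widely than either other genotype. MSTRG.18089 had 36.9, 40.6 and 34.4 CPM in the Prm1-/- males and 154.9, 124.1 and 129.6 CPM in the Prm1+/- males, and fell by 1.87 on the log2 scale (standard error 0.26, edgeR adjusted p = 0.0358). Its WT males had 112.1, 124.2 and 62.4 CPM, again above every Prm1-/- male. Neither call held without any 1 of 6 males (each Prm1-/- male, Prm1+/- replicates 1 and 3, and WT replicate 1), while the log2 fold changes stayed between -2.73 and -2.55 for MSTRG.9014 and between -1.93 and -1.73 for MSTRG.18089 over every alternative run.

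**Figure D2:**
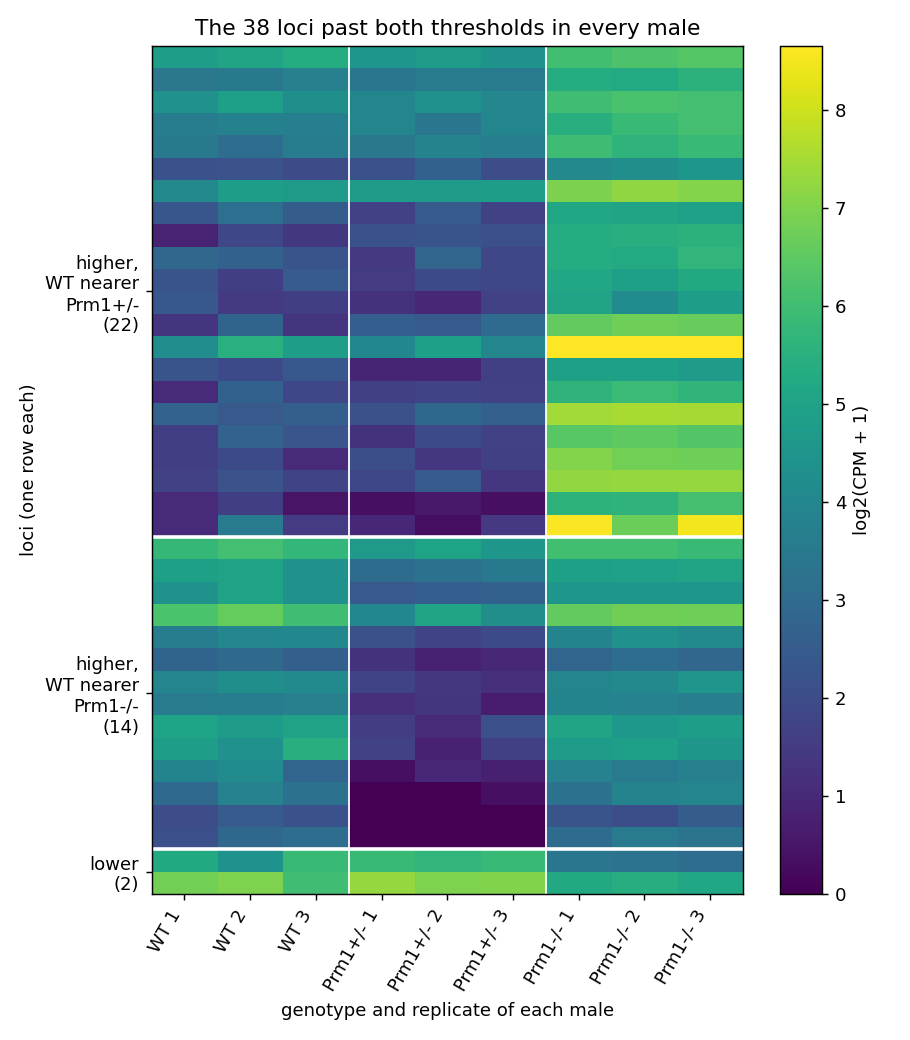
The 38 loci past both thresholds (1 row each) in the 9 males (columns, by genotype and replicate), coloured by log2(CPM + 1), with white lines between genotypes and between classes. Each of the upper 22 rows is brighter in the 3 Prm1-/- columns than in the others. Each of the next 14 is darker in the 3 Prm1+/- columns than in the others, and the lowest 2 are darker in the Prm1-/- columns.

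How many loci passed rested on single males, and on Prm1+/- replicate 2 above all. Each fit below was made on the same 17358 loci. Without Prm1+/- replicate 2, 577 of the 17358 loci were higher and 26 lower in Prm1-/- testis. Without Prm1+/- replicate 1 or 3, 23 and 27 loci were higher and 0 were lower. The number of higher loci was 94, 20 and 33 without Prm1-/- replicates 1, 2 and 3, and the number of lower loci was 12, 0 and 7. Without WT replicates 1, 2 and 3, which enter the comparison through the estimate of spread and the scaling, it was 48, 54 and 44 for higher and 1, 4 and 6 for lower loci.

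The levels showed the same dependence on Prm1+/- replicate 2. At 927 of the 17358 loci tested Prm1+/- replicates 1 and 3 both lay more than 1 unit of log2(CPM + 1) under every Prm1-/- male. Prm1+/- replicate 2 was also that low at 125 of these loci, and at 328 it lay within or above the range of the Prm1-/- males. The pairs that held Prm1+/- replicate 2 were that low at 170 loci (with replicate 3) and at 190 loci (with replicate 1). In the other direction, Prm1+/- replicates 1 and 3 both lay more than 1 unit above every Prm1-/- male at 59 of the 17358 loci. At 13 of those, Prm1+/- replicate 2 was also that high.

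A further property of the table touched these counts. At some loci 1 male had exactly 0 counts where both other males of its genotype had at least 20. This held for 184 loci in Prm1+/- replicate 1, 18 in replicate 2 and 107 in replicate 3, and for 3, 24 and 80 loci in Prm1-/- replicates 1, 2 and 3. In WT replicates 1, 2 and 3 the numbers were 49, 136 and 47, so such zeros were present in all 3 genotypes. The largest count in another male at such a locus was 2452 in the Prm1+/- group and 1930 in the Prm1-/- group. Of the 38 loci past the thresholds, 0 were of this kind. Such a spread within a genotype works against a small adjusted p, so that this 0 was largely set in advance. The part of these zeros in the result was not tested.

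**Figure D3:**
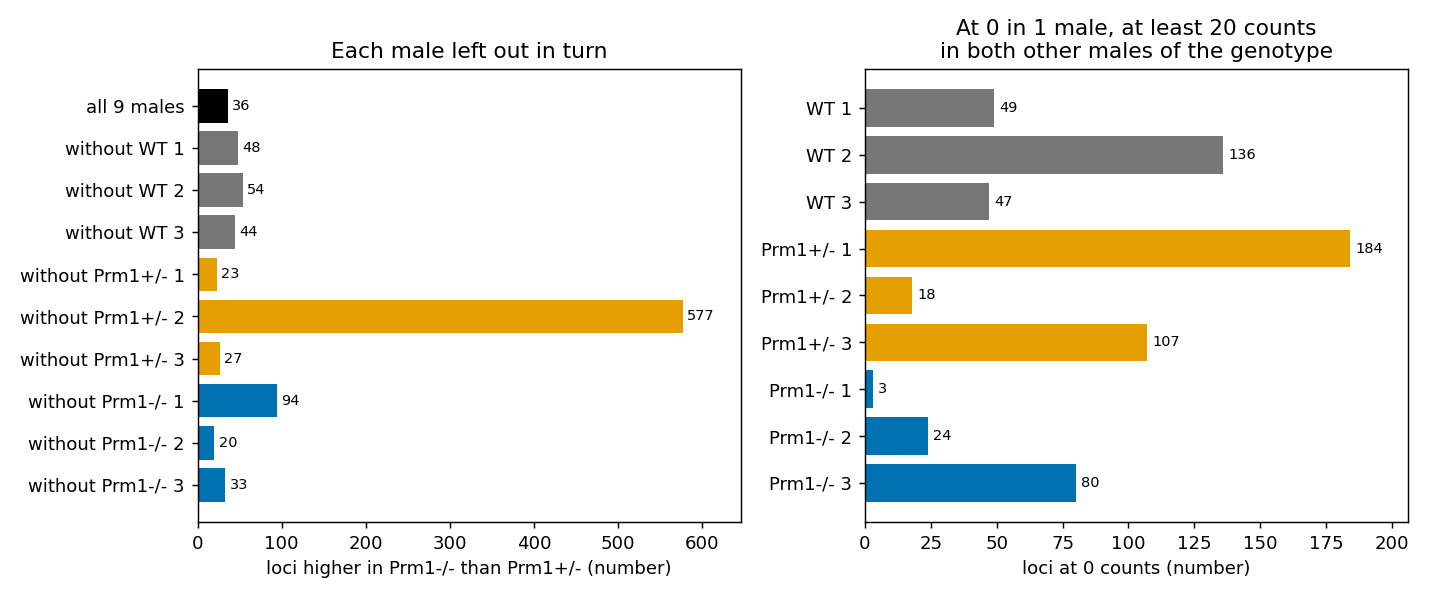
Left, number of loci that passed as higher in Prm1-/- testis with all 9 males (black) and with each male left out in turn. Right, number of tested loci at 0 counts in 1 male where both other males of the genotype have at least 20 counts. The bar without Prm1+/- replicate 2 reaches 577 against 36 with all males, and the zeros are most frequent in Prm1+/- replicate 1, with 184 loci.

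Loci that were nearly silent in one genotype and counted throughout the other were few. At 18 loci every Prm1+/- male was at or under 3 counts and every Prm1-/- male had at least 10, of which 16 had 0 counts in all 3 Prm1+/- males. The opposite pattern was found at 3 loci. All of these loci met the count filter only through the genotype in which they were counted, so that a difference was built into their selection. Of the 18, 3 were past the thresholds, and of the 3, 0 were. In WT, 4 of the 18 loci had no more than 3 counts in each male, 3 had at least 10 in each, and 11 were mixed. At one mixed locus the WT males had 108, 0 and 186 counts, the Prm1+/- males 0, 0 and 0, and the Prm1-/- males 286, 125 and 109, with an adjusted p of 0.349 (edgeR). At 3 loci every WT and Prm1+/- male had 0 counts and the Prm1-/- males had between 13 and 46, with adjusted p of 0.0944, 0.122 and 0.152 (edgeR).

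The 1056 Ensembl-identifier loci could be named, and none passed the thresholds in edgeR (0 of 1056, 0.0%). With DESeq2 on all 9 libraries, 3 were higher and 1 was lower. With DESeq2 on the 6 libraries those 4 loci received no adjusted p, so that the count of 0 in that fit says nothing about them. An unadjusted p under 0.05 in edgeR was found for 45 of them (4.26%), with 33 higher (3.12%) and 12 lower (1.14%). Their median log2 fold change was -0.001, and 49.9% lay above 0. A symbol was found for 1054 of them, and 943 were protein-coding in the annotation, 43 were lincRNA genes and 18 were processed pseudogenes. These loci were sparsely counted, with a median of 15 counts per male against 85 for MSTRG loci, and MSTRG loci took 99.45% to 99.59% of the counts of each male in the series. Among loci under 5 CPM, p was under 0.05 before adjustment for 4.40% of 977 Ensembl loci and for 7.69% of 3926 MSTRG loci, a difference that was not tested. A gene with an Ensembl row may also have reads in an MSTRG locus, so each value below is that of the row and may not be that of the whole gene.

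The Ensembl loci with the smallest p in either direction were nearly silent in one of the genotypes compared. Such loci met the filter on low counts only through the genotype in which they were counted, so that a difference was built into their selection. Trim68, a ubiquitin ligase of the tripartite motif family on chromosome 7 (102677582 to 102687327, GRCm38), had 28, 12 and 13 counts in the Prm1-/- males, 1, 1 and 0 in the Prm1+/- males and 1, 0 and 0 in the WT males. It was nearly silent in both other genotypes and counted in every Prm1-/- male. Relative to the floor of 3 counts per Prm1+/- library its level was at least 6.91-fold higher (edgeR adjusted p = 0.0774). It passed with DESeq2 on all 9 libraries, with edgeR on the 6 libraries alone, with the newer quasi-likelihood method and without Prm1+/- replicate 2, at adjusted p between 0.00687 and 0.0464, and where an alternative gave it an adjusted p this ran from 0.00687 to 0.641.

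Pth1r, the receptor for parathyroid hormone and its related peptide, on chromosome 9 (110722085 to 110747145), went the other way. It had 20, 22 and 18 counts in the Prm1+/- males and 0 counts in all Prm1-/- and all WT males. Its level was at least 4.82-fold lower in Prm1-/- testis, relative to the floor, with an adjusted p of 0.168 in edgeR and 0.0249 in DESeq2 on all 9 libraries, the lowest among the alternatives that gave one, which reached 1. The absence in Prm1-/- replicate 1 was that of the deepest library.

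F11, coagulation factor XI, had 24, 11 and 10 counts in the Prm1-/- males, 0 in every Prm1+/- male and 0, 5 and 8 in the WT males (adjusted p = 0.335 in edgeR and 0.0126 in DESeq2 on 9 libraries). Neurl1b, a ubiquitin ligase of the Notch pathway, had 45, 13 and 14 counts in the Prm1-/- males, 0 in every Prm1+/- male and 17, 28 and 0 in the WT males (adjusted p = 0.384 in edgeR and 0.0162 in DESeq2 on 9 libraries). Where an alternative gave an adjusted p, it ran from 0.0126 to 1 for F11 and from 0.0144 to 1 for Neurl1b. Prm1-/- and Prm1+/- males did not overlap at either locus, but the WT males held both zeros and counts. Jph2, a junctophilin of muscle cells named because it completes the nearly silent group, had 23, 12 and 11 counts in the Prm1-/- males, 0 in every Prm1+/- male and 0, 0 and 25 in the WT males (adjusted p = 0.397, edgeR).

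**Figure D4:**
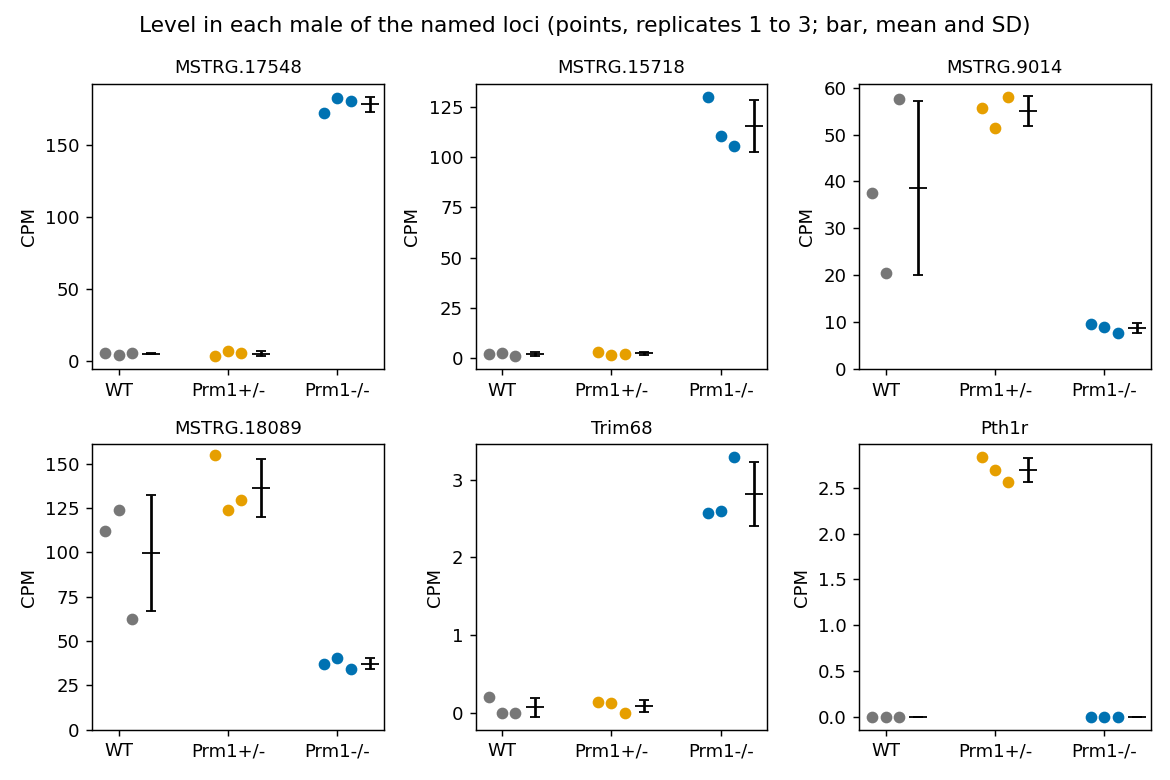
Level (CPM, linear axes) of 4 MSTRG loci past both thresholds and of Trim68 and Pth1r, which were not past them in edgeR, in each WT, Prm1+/- and Prm1-/- male (points) with the mean and SD of each genotype (n = 3). In each panel the Prm1-/- and Prm1+/- points do not overlap, and the axes differ, with Trim68 and Pth1r near 3 CPM at most.

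The other Ensembl loci with small p had counts in both genotypes and moderate differences, none past the thresholds in edgeR. Cops7b, a subunit of the COP9 signalosome, had 4.30, 3.67 and 5.31 CPM in the Prm1-/- males and 1.42, 2.21 and 1.86 CPM in the Prm1+/- males (log2 fold change 1.26, adjusted p = 0.338). Trabd2b, a membrane protease that inactivates Wnt ligands, had 3.11, 4.75 and 3.79 CPM against 2.13, 1.35 and 1.86 CPM (log2 fold change 1.11, adjusted p = 0.363). Parp14, a mono-ADP-ribosyltransferase induced by interferon, had 3.66, 4.32 and 6.57 CPM against 1.84, 1.84 and 2.998 CPM (log2 fold change 1.10, adjusted p = 0.392). In each of them every Prm1-/- male lay above every Prm1+/- male, which held for 8.9% of the Ensembl loci tested. The WT males had 2.48, 4.36 and 3.33 CPM for Cops7b and 4.54, 4.11 and 3.33 CPM for Trabd2b, all above every Prm1+/- male. For Parp14 the WT males had 2.685, 1.54 and 1.666 CPM, overlapping the Prm1+/- males. The remaining 5 of the 10 with the smallest p in this direction were Zkscan2, a zinc finger gene, the lincRNA gene Gm29325, the splicing factor gene Cwc22, Bach2, a transcriptional repressor of lymphocytes, and Neurl1b, given above. Their log2 fold changes without Neurl1b ran from 0.78 to 2.01, with adjusted p between 0.384 and 0.395 (edgeR). In the Prm1+/- males Gm29325, the locus at 2.01, had 2, 5 and 3 counts and Cwc22 had 5, 7 and 8. Both therefore met the filter only through the Prm1-/- males, and a difference was built into their selection too.

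In the lower direction Pth1r was followed by Slco2b1, a transporter of organic anions. It had 2.93, 3.02 and 2.53 CPM in the Prm1-/- males and 4.53, 4.90 and 5.43 CPM in the Prm1+/- males, a log2 fold change of -0.80 (adjusted p = 0.363, edgeR). Jade2, a PHD finger protein that modifies chromatin factors, had 4.12, 3.24 and 2.78 CPM against 6.80, 4.90 and 6.43 CPM (log2 fold change -0.82, adjusted p = 0.392, edgeR). Every Prm1-/- male lay below every Prm1+/- male at both, which held for 7.29% of Ensembl loci. The WT males had 3.30, 3.85 and 3.33 CPM for Slco2b1, below every Prm1+/- male. For Jade2 the WT males had 5.37, 3.59 and 4.998 CPM, overlapping the Prm1+/- males. The others of the 10 were Nfatc1, a transcription factor of T cells and bone, Slc17a8, a vesicular glutamate transporter, Mlip, a lamin-interacting protein of muscle, the transcripts Gm10646, Gm18337 and Gm43305, and D130043K22Rik. Their log2 fold changes ran from -1.18 to -0.65, with adjusted p between 0.378 and 0.415 (edgeR), and the males of the genotypes overlapped for Mlip.

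Few genes of the testis itself were among the named rows. Of 123 marker symbols of testis, epididymis, blood and immune cells, 24 had an Ensembl row and 11 were tested. For spermatocytes (12 symbols), round spermatids (12 symbols) and spermatid chromatin (16 symbols, with the protamines and transition proteins) 0 had a row. They could therefore not be followed by name. Rows were matched by symbol, so a row under another symbol of the same gene would not have been found. Of the Leydig, Sertoli, macrophage, blood and epididymis lists, 0 members were tested. In whole testis, fewer cells of a type and less RNA per cell cannot be told apart.

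At each of the 6 tested endothelial genes the males of the genotypes overlapped. Flt1 and Kdr, receptors for vascular endothelial growth factor, had 6.59, 5.61 and 5.06 CPM and 5.13, 4.53 and 6.07 CPM in the Prm1-/- males. The Prm1+/- males had 8.36, 5.64 and 6.00 CPM for Flt1 and 5.53, 5.27 and 6.28 CPM for Kdr, overlapping at both. Log2 fold changes of the 6 genes ran from -0.20 (Flt1) to 1.18 (Pecam1), with a median of -0.10 against 0.016 over all loci. Summed over Acvrl1, Tek, Pecam1, Flt1, Cdh5 and Kdr, the level was 18.6 ± 0.874 CPM (SD, n = 3) in Prm1-/- and 18.6 ± 0.820 CPM (SD, n = 3) in Prm1+/- testis, with 0 of 6 genes past the thresholds. Cdh5, the cadherin of vessels, was at 0 counts in 1 male of each genotype.

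The 3 tested peritubular and stromal genes had higher fitted values in Prm1-/- than in Prm1+/- testis, none past the thresholds. Pdgfra, a growth factor receptor of stromal cells, had 4.85, 2.59 and 7.08 CPM in the Prm1-/- males and 1.56, 3.80 and 2.28 CPM in the Prm1+/- males (log2 fold change 0.91, edgeR adjusted p = 0.442). Col6a1, a chain of collagen VI, had 3.48, 1.73 and 3.03 CPM against 2.13, 1.59 and 2.14 CPM, and Tbx2, a T-box factor, had 2.20, 1.73 and 3.03 CPM against 2.13, 2.21 and 1.71 CPM. The Prm1-/- and Prm1+/- males overlapped at all 3, and Prm1-/- replicate 2 was the lowest of its group each time. The WT males had 4.96, 4.88 and 5.55 CPM for Pdgfra and 3.72, 3.34 and 2.96 CPM for Col6a1. At these genes every WT male lay above every Prm1+/- male. For Tbx2 the WT males had 2.27, 2.31 and 1.67 CPM, overlapping the Prm1+/- males. Among the 8 collagen genes tested 4 had a log2 fold change above 0 and 4 below, with a median of -0.07. Col6a3, of the same collagen VI, had 52, 0 and 0 counts in the Prm1-/- males and 16, 25 and 16 in the Prm1+/- males, another case of zeros within a genotype (adjusted p = 0.892, edgeR).

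Of the spermatogonial genes, Sall4 and Zbtb16, both transcription factors of undifferentiated spermatogonia, were tested. Sall4 had 2.56, 2.37 and 3.54 CPM in the Prm1-/- males and 2.55, 2.45 and 3.14 CPM in the Prm1+/- males, and Zbtb16 had 1.46, 1.94 and 2.27 CPM against 2.41, 2.33 and 1.43 CPM. Their log2 fold changes were 0.046 and -0.15 (adjusted p = 0.994 and 0.898, edgeR), with overlapping males. Of 15 interferon genes, Mx1 and Oasl2, both antiviral effectors, were tested, with log2 fold changes of 0.30 and 0.14 (adjusted p = 0.922 and 0.841, edgeR). Of the inflammation (13 genes), oxidative stress (22 genes), flagellum (18 genes) and DNA damage and apoptosis (18 genes) lists, 0 members were tested.

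In gene families recognised by symbol, 0 members passed the thresholds. Of 38 zinc finger genes tested, 25 had a log2 fold change above 0 (median 0.22), the males did not overlap at 4 higher and 2 lower genes (8.9% and 7.29% of all Ensembl loci), and an unadjusted p under 0.05 was found for 0 of them. Of 26 solute carrier genes, 15 lay above 0 (median 0.055). Of 96 predicted genes with Gm symbols, 42 lay above 0 (median -0.051), with p under 0.05 before adjustment for 3 higher and 3 lower, against 3.12% and 1.14% of all Ensembl loci. Of 30 genes with Rik symbols, 17 lay above 0 (median 0.070). Olfactory receptors, which are silent in most tissues but in part transcribed in testis, had 1336 rows, of which 4 were tested, and vomeronasal receptors had 484 rows, of which 2 were tested. The histone gene Hist1h2be had 1.92, 3.02 and 1.77 CPM in the Prm1-/- males and 0.850, 1.35 and 0.428 CPM in the Prm1+/- males (log2 fold change 1.31, edgeR adjusted p = 0.397), with no overlap. The testis multicopy families gave Mageb4 and Xlr3a, with log2 fold changes of 1.65 and 0.16 (adjusted p = 0.628 and 0.843, edgeR). Mageb4 had 0, 0 and 12 counts in the Prm1+/- males. Keratin, beta-defensin, ribosomal protein, microRNA, small nucleolar and nuclear RNA, and mitochondrial genes had 0 tested rows.

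Named rows near the edited gene on chromosome 16 were set apart after their values had been seen. Of 31 Ensembl loci tested on this chromosome, 8 lay within 20 Mb of Prm1. Their log2 fold changes ran from -0.71 to 0.79 with a median of -0.13, p was under 0.05 before adjustment for 0 of 8, and the males of the genotypes overlapped at every one. The nearest, Prkdc, which encodes the catalytic subunit of a DNA repair kinase and lies 4.83 Mb from Prm1 (15637866 to 15842235), had 9.71, 8.42 and 13.9 CPM in the Prm1-/- males and 10.3, 8.82 and 7.996 CPM in the Prm1+/- males (adjusted p = 0.746, edgeR). Parp14, given above, lies 25.03 Mb away and was the only one of the 31 with p under 0.05 before adjustment. MSTRG loci have no position in the files, so their place relative to Prm1 was not analysed here.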

How the data were processed

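Per the paper's methods and the labels, the authors sequenced 50 base reads (QuantSeq) of 9 testis libraries, mapped them to GRCm38 (HISAT2 2.1), used StringTie 1.3.3 for transcript assembly and quantification, and made gene counts with the program supplied with it. The deposited values are estimated counts, whole numbers rebuilt from transcript coverage and not scaled for library size, and were used without rounding. No columns were identical (0 pairs). Loci with at least 10 counts in 3 or more of the 6 Prm1-/- and Prm1+/- libraries were kept. TMM factors and the quasi-likelihood test of edgeR 4.0.16 (R 4.3.3, default settings) were applied to all 9 libraries with 1 mean per genotype. Benjamini-Hochberg adjustment was made over 17358 loci. A locus passed when its adjusted p was under 0.05 and its log2 fold change was beyond 1 in either direction. The standard error is the absolute log2 fold change divided by the square root of the F statistic. The common dispersion was 0.191. Folds against a genotype with no more than 3 counts in any male are bounds against the mean floor of its libraries. Symbols and positions of Ensembl rows are from GENCODE vM21 (GRCm38).

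The loci named were the 2 MSTRG loci with the smallest adjusted p in each direction, the 10 Ensembl loci with the smallest p in each direction, and tested members of 16 symbol lists. Other MSTRG loci are given without identifiers. The males and lists compared were chosen with earlier results of these data known. The labels give the males of a genotype as separate individuals. DESeq2 1.42.0 and other settings were run as alternatives. In simulated counts for 17358 loci between Prm1-/- and Prm1+/- libraries, 200 loci were changed by a log2 fold of 3. The test of edgeR recovered 92% of them with 8 false calls, and DESeq2 91% with 26. The simulated spread depended on level alone, with no male unlike the others of its genotype and no added zeros in single males. These figures may therefore not hold for the real counts.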

Additional observations from a re-analysis of the deposited data

How the results depend on the processing

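All 38 loci kept their direction in every alternative that tested them, but only 5 passed the thresholds in every alternative. The 36 higher and 2 lower loci became 218 and 27 with DESeq2 on 9 libraries, 446 and 68 with DESeq2 on 6 libraries, 72 and 8 with edgeR on 6 libraries, and 232 and 28 with DESeq2 without Cook's filtering (added after the data had been seen). Unscaled library totals left 1 lower locus. Leaving out 1 male gave 20 to 577 higher and 0 to 26 lower loci, both maxima without Prm1+/- replicate 2. The cause of these changes was not tested. With Prm1+/- replicate 2 as the lone heterozygote, also added later and with its spread assumed like that of the other groups, 25 were higher and 5 lower, of which 6 and 0 were among the 36 and 2. Counts of higher loci stayed within 1.5 times with library totals, and counts in both directions with RLE factors, filterByExpr, no filter, 10 counts in all 6 libraries (where 30 were higher, 23 of them among the 36), adjusted p alone, thinning to 3681615 counts, and the robust and newer quasi-likelihood fits.

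Ensembl loci past the thresholds numbered 4 with DESeq2 on 9 libraries, 1 each with edgeR on 6 libraries, the newer quasi-likelihood method, no filter and DESeq2 without Cook's filtering, and 0 to 6 with 1 male left out. With the replicate block, 18 loci were higher and 0 lower. Deviations from the genotype means in same-numbered Prm1+/- and Prm1-/- males had r of 0.0115, 0.0495 and 0.0284. For males of different numbers r ran from -0.0459 to 0.0228. Deviations within a genotype sum to 0 at each locus, so these values cannot tell whether same-numbered males share more than a number. Ensembl rows had a median of 15 counts per male. DESeq2 gave no adjusted p to some of them, and these are not counted as lost calls.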
